A study of Mus musculus with 2 samples.

Results

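The 10 genes Sst, Npy, Cck, Vip, Penk, Pdyn, Tac1, Tac2, Crh and Adcyap1 encode neuropeptide precursors of hippocampal neurons. They were taken by symbol, each symbol led to 1 gene identifier, and they are 10 of 55536 mouse genes in the deposited gene tables. The material was hippocampal tissue (labelled layer of hippocampus) of female adult mice of strain 5xFAD/CAST, 8 to 10 months old, and the 2 libraries are biological replicates 1 and 2 of 1 group. 5xFAD is a transgenic model of familial Alzheimer's disease whose mutant human transgenes are driven in neurons by the Thy1 promoter, and CAST is a wild-derived strain. Both libraries carry the transgenic background, no control group was analysed here, and the same donor record stands behind both, so whether they came from separate animals cannot be told. All spreads therefore measure the difference between these 2 libraries, and no test between conditions was possible.

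A neuropeptide is made as a longer precursor, which is cut in the secretory pathway at pairs of basic residues and stored in dense-core vesicles. Many of the peptides are then amidated at their end, where a glycine before the basic pair supplies the amide. In the hippocampus, somatostatin, neuropeptide Y, vasoactive intestinal peptide and cholecystokinin are classical products of GABAergic interneurons, and cholecystokinin is also made by pyramidal cells. Enkephalin and dynorphin are known from dentate granule cells, the tachykinins from scattered neurons, and corticotropin-releasing hormone from a subset of interneurons.

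The signals for this processing can be read in the coding sequences of GENCODE M21 transcripts on mm10, and they are shown here because the isoform results below turn on which transcripts hold them. In the leading transcript of each gene (the one with the most expected counts), a search of the reading frame for a glycine codon followed by 2 codons for lysine or arginine found such a run in 6 of the 10 genes. Among 21938 nuclear protein-coding genes the run occurs in 36.5%, and in 21.7% of the 6807 with fewer than 300 codons. Its presence alone is thus not particular to neuropeptides. For these shares every annotated coding transcript of a gene was searched, and by that wider search 6 of the 10 genes held the run as well. The lines give the 10 codons before the run in lower case and the run in capitals. Vip and Adcyap1 hold 2 such runs each, of which 1 is shown.
Cck (chr9:121490098-121490136, minus strand): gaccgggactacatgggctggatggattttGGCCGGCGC
Npy (codons 55 to 67, split over 2 exons of chromosome 6, plus strand): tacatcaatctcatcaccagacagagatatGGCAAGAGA
Vip, end of vasoactive intestinal peptide (chr10:5644078-5644116, plus strand): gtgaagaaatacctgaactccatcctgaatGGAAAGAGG
Adcyap1, end of the longer PACAP form (chr17:93204074-93204112, plus strand): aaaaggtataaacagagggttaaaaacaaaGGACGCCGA
Tac1, end of substance P (chr6:7556735-7556773, plus strand): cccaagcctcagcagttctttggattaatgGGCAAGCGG
Tac1, end of neurokinin A (chr6:7559101-7559139, plus strand): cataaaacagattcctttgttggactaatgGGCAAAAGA
Tac2, end of neurokinin B (chr10:127729116-127729154, plus strand): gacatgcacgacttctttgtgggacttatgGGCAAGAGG

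The 3 tachykinin ends are alike. Of the last 24 bases, neurokinin A and neurokinin B share 20, and substance P shares 18 with each of them. Crh ends in a glycine and a single lysine codon before its stop, and Sst has no glycine before a basic pair. For Sst the stretch runs from the last basic pair (capitals) to the last codon and encodes the shorter somatostatin, and for Crh the capitals mark the final glycine and lysine codons.
Sst (chr16:23889732-23889779, minus strand): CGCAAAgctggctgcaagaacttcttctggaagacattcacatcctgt
Crh (chr3:19693916-19693951, minus strand): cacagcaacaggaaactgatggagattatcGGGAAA

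Both opioid precursors carry, in place of such an end, repeats of the run for tyrosine, glycine, glycine and phenylalanine with which opioid peptides begin. Penk holds 7 such runs in 268 codons and Pdyn 3 in 248. Only 4 nuclear protein-coding genes hold 3 or more of them, the other members of that set being the keratin-associated genes Krtap19-2 with 5 and Krtap19-4 with 3. Of these, 3 runs are shown, in capitals with the neighbouring codons, for a methionine enkephalin, the leucine enkephalin and the neoendorphin position.
Penk, codons 98 to 106 (chr4:4134328-4134354, minus strand): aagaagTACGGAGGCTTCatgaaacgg
Penk, codons 229 to 237 (chr4:4133935-4133961, minus strand): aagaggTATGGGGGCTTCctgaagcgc
Pdyn, codons 164 to 172 (chr2:129688232-129688258, minus strand): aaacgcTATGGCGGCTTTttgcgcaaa

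Upstream sequence was compared over the RefSeq promoter table (GRCm38.p6), which holds 8 of the 10 genes, Crh and Penk being those without an entry. The cAMP response element TGACGTCA, to which CREB binds, was searched on both strands in the 250 bases before each start. It was found in Sst alone of the 8, 48 bases before the start, and in 1.55% of 32851 promoters. Its 5-base core TGACG, which is part of the longer element, was present in 5 of the 8 (Sst, Tac1, Cck, Vip and Adcyap1) and in 17.8% of all promoters. The 8 genes have 10 promoter entries, and a gene was counted if any of its entries held the motif. The percentages are per entry, so the units differ. The motif is in capitals, read on the gene's strand.
Sst (chr16:23890874-23890903, minus strand): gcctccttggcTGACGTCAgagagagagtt
Vip (chr10:5639127-5639155, plus strand): ggatcactactgTGACGtctttcggggag
Adcyap1 (chr17:93198914-93198942, plus strand): ggactaggatgcTGACGtcttttactgat
Cck (chr9:121495725-121495753, minus strand): cctgctggactgCGTCAgcactgggtaaa
The GENCODE start of Sst lies 114 bases before the RefSeq start, so the Sst element falls inside the annotated leading exon of the transcript on which reads were counted. The Tac1 match 43 bases before its RefSeq start, not shown, likewise lies in a stretch (chr6:7555006-7555034) that overlaps an annotated exon. A letter match is a description of sequence, and no binding was measured.

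Levels are given as TPM, a transcript abundance per length and per fixed library total, from the gene tables, as the mean ± SD of n = 2 libraries. Replicates 1 and 2 held 27816845 and 32316737 expected counts, the estimated number of reads per gene. A gene is called detected where each library gave it 1 TPM or more. All 10 genes were detected, as were 13251 of 22015 nuclear protein-coding genes, and their levels spanned a 198-fold range. Cck and Sst together made up 82.8% of the summed 469 ± 38.8 TPM of the 10 genes. The deposited posterior SD of the gene count, a measure of uncertain read assignment, was 0 for each of them in both libraries.

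**Figure D1:**
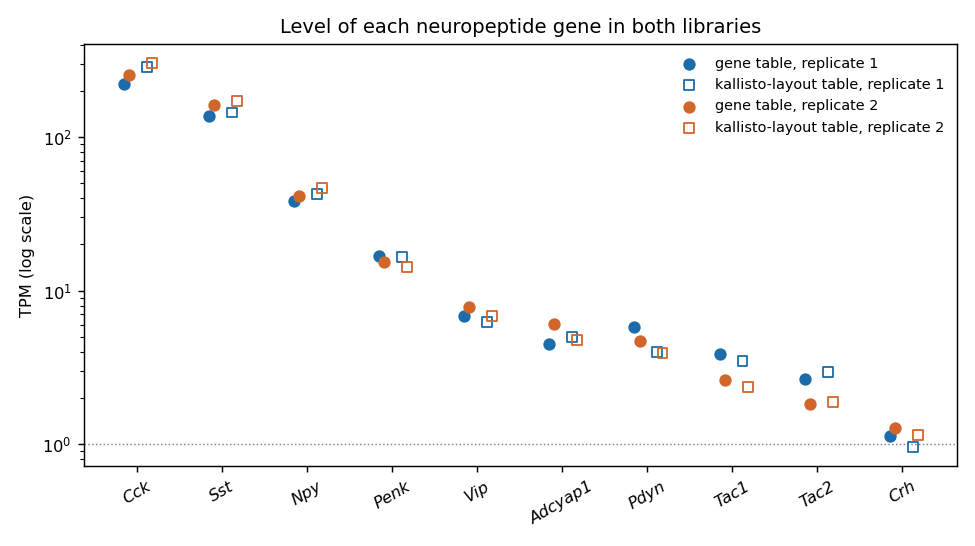
TPM (log axis) of each gene in each library, from the gene table (filled circles) and the kallisto-layout table (open squares), with the dotted line at a TPM of 1. Cck and Sst are the highest genes in both tables, and Crh lies at the line.

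Cck, the gene of cholecystokinin (ENSMUSG00000032532.7, chr9:121489824-121495694, minus strand), was highest, at 223.69 and 253.22 TPM in replicates 1 and 2, a mean of 238 ± 20.9 TPM. These levels rest on 2574 and 3322 expected counts. Among nuclear protein-coding genes Cck ranked 231 and 206 of 22015. Both libraries placed it above every other gene of the group, and its lower library was above the higher library of Sst.

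Sst, the gene of somatostatin, which interneurons aimed at pyramidal cell dendrites release (ENSMUSG00000004366.4, chr16:23889573-23890958, minus strand), stood at 138.04 and 161.51 TPM in replicates 1 and 2. Its mean was 150 ± 16.6 TPM, on 1684 and 2248 counts, and its rank 495 and 417. Npy, the gene of neuropeptide Y, which somatostatin and neurogliaform interneurons make (chr6:49822710-49829507, plus strand), stood at 38.12 and 41.65 TPM, a mean of 39.9 ± 2.50 TPM. Its libraries differed by less than those of Sst, with coefficients of variation of 6.26% and 11.1%. Vip, the gene of vasoactive intestinal peptide, whose interneurons largely contact other interneurons (chr10:5639218-5647617, plus strand), was lower, at 6.82 and 7.80 TPM. The libraries of these 3 genes did not overlap each other, so their order was the same in both.

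Of the opioid precursors, Penk, the gene of the enkephalins (chr4:4133531-4138819, minus strand), stood at 16.75 and 15.43 TPM, a mean of 16.1 ± 0.933 TPM on 401 and 419 counts. Penk overlaps A830012C17Rik on the other strand, which had 1 count per library. Pdyn, the gene of the dynorphins (chr2:129686565-129699844, minus strand), stood at 5.82 and 4.72 TPM, a mean of 5.27 ± 0.778 TPM. Both opioid genes were thus higher in TPM in replicate 1, and every Penk value lay above every Pdyn value.

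The tachykinin genes were lower still. Tac1, which encodes substance P and neurokinin A (chr6:7554879-7565834, plus strand), stood at 3.85 and 2.63 TPM on 66 and 50 counts. Tac2, which encodes neurokinin B in the mouse (chr10:127724478-127731768, plus strand), stood at 2.64 and 1.83 TPM on 30 and 23 counts. The higher Tac2 library lay just above the lower Tac1 library, so the libraries of Tac1 and Tac2 overlapped.

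Adcyap1, the gene of the peptide PACAP, which raises cyclic AMP in its target cells (chr17:93199017-93206537, plus strand), stood at 4.47 and 6.10 TPM on 137 and 187 counts. Its mean of 5.29 ± 1.15 TPM could not be separated from that of Pdyn, since their libraries overlapped. Crh, the gene of corticotropin-releasing hormone (chr3:19693401-19695396, minus strand), was lowest, at 1.13 and 1.28 TPM on 27 and 35 counts. In descending order the genes were Cck, Sst, Npy, Penk, Vip, Adcyap1, Pdyn, Tac1, Tac2 and Crh, and the libraries of neighbours overlapped in 2 of 9 pairs, Adcyap1 with Pdyn and Tac1 with Tac2.

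The kallisto-layout table, made from reads and an index, put the 10 genes in the same order. Its TPM was a median of 0.949 times that of the gene table over the 8397 nuclear genes for proteins whose mean reached 10 TPM. Cck lay above that value, at 296 ± 10.9 TPM, 1.24 times its gene-table level. Pdyn lay below it, at 3.94 ± 0.0376 TPM, 0.748 times. Counts differed less: those of Cck were 1.01 times and those of Pdyn 1.05 times the gene-table counts, beside a median of 1.13 over the same 8397 genes. Crh fell under a TPM of 1 in replicate 1 of that table, at 0.961 TPM.

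How the levels divide over transcripts was examined next. Sst, Npy and Crh have 1 annotated transcript each, and the other 7 genes have between 2 and 6. For these 7 the share of a gene's TPM was summed over transcripts whose annotated coding sequence holds every peptide run found in the leading transcript of that gene (the glycine runs or the opioid runs described above). A transcript annotated with an incomplete end counts as not holding a run that lies beyond it, so the share describes the annotation as well as the RNA.

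**Figure D2:**
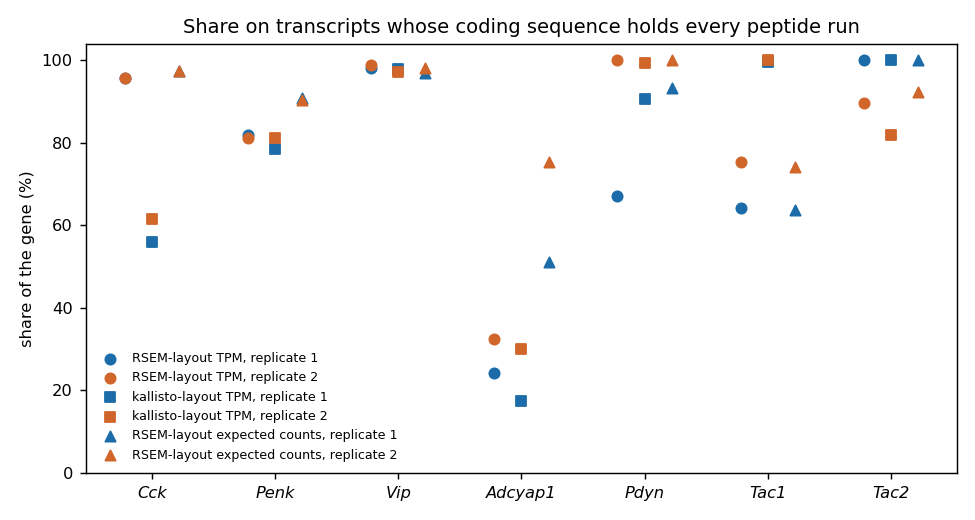
Share (%) of each gene with more than 1 transcript that lies on transcripts whose coding sequence holds every peptide run, per library (colours), by RSEM-layout TPM (circles), kallisto-layout TPM (squares) and RSEM-layout expected counts (triangles). Adcyap1 has the lowest shares by TPM, and Cck and Tac1 differ most between the table layouts. Points of the 2 libraries of Cck coincide for circles and triangles.

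Cck depended on the table. By the RSEM-layout values, 95.8% of its TPM in replicate 1 and 95.7% in replicate 2 lay on Cck-201 and Cck-203, both of which hold the amidation run. In the kallisto-layout table these shares were 56.0% and 61.5%. The rest lay there mostly on Cck-205, of 478 nucleotides, at 63.1 and 69.5 TPM, and Cck-202, of 385 nucleotides, at 61.3 and 44.0 TPM. By the RSEM layout the same transcripts stood at 0.910 and 1.69 TPM (Cck-205) and at 6.76 and 7.17 TPM (Cck-202). Summed over the transcripts that hold the run, Cck stood at 228 ± 19.9 TPM by the RSEM layout and at 174 ± 17.9 TPM by kallisto's, and it was the highest of the 10 genes in both.

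Tac1 is spliced into forms that differ by its exons 4 and 6. Exon 6 encodes neurokinin A, and its run for the amide is in capitals, while exon 4 holds no such run and is shown in lower case.
Tac1 exon 4 (chr6:7557216-7557260, plus strand): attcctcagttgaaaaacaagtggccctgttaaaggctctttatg
Tac1 exon 6 (chr6:7559099-7559152, plus strand): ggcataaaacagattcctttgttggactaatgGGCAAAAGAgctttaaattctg
Tac1-205 holds both exons, Tac1-201 lacks exon 6 and Tac1-203 lacks exon 4. In the RSEM-layout table exon 6 was held by 64.2% of Tac1 TPM in replicate 1 and 75.3% in replicate 2, since Tac1-201 stood at 1.38 and 0.650 TPM there. By the kallisto layout the shares were 99.5% and 100%, with Tac1-201 at 0.0159 and 0 TPM. Exon 4 gave similar values in both tables, at 63.9% ± 6.54 and 64.1% ± 1.09. The share of exon 6 rests on at most 66 Tac1 counts in the RSEM layout and 72 in the kallisto layout. In the RSEM layout the count of 23.92 on Tac1-201 in replicate 1 carried a posterior SD of 9.77.

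Adcyap1 had the lowest share. Only 24.2% of its TPM in replicate 1 and 32.5% in replicate 2 lay on Adcyap1-201 and Adcyap1-202. These transcripts hold both glycine runs of Adcyap1 in their coding sequence. By expected counts the shares were 51.1% and 75.3%. Read assignment was uncertain here: Adcyap1-202 had 0 and 61.74 counts in replicates 1 and 2, with posterior SDs of 10.94 and 26.64. Adcyap1-205, a fragment of 318 nucleotides, had 7.73 and 14.99 counts but 1.81 and 3.07 TPM, because TPM divides by a short length. The annotated coding sequence of Adcyap1-205 holds neither run. The retained-intron transcript Adcyap1-203, which has no annotated coding sequence, stood at 1.58 and 0.690 TPM. Counted over Adcyap1-201 and Adcyap1-202 alone, Adcyap1 stood at 1.53 ± 0.636 TPM, and Tac2 at 2.14 ± 0.707 TPM on the same measure. The libraries of these genes overlapped, with Adcyap1 at 1.08 and 1.98 TPM and Tac2 at 2.64 and 1.64 TPM, so their order was not the same in both.

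The TPM and the counts of Pdyn pointed in opposite directions. On the leading Pdyn-201, which holds all 3 opioid runs, Pdyn stood at 3.91 and 4.72 TPM in replicates 1 and 2. Replicate 1 had in addition 7.81 counts on Pdyn-202, a fragment of 369 nucleotides, worth 1.48 TPM, and 4.64 counts on the retained-intron Pdyn-203, worth 0.430 TPM, against 0 on both in replicate 2. The gene's TPM was therefore higher in replicate 1, whereas its counts were 188 and 242 and its scaled counts higher in replicate 2. The count on Pdyn-202 carried a posterior SD of 4.02.

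**Figure D3:**
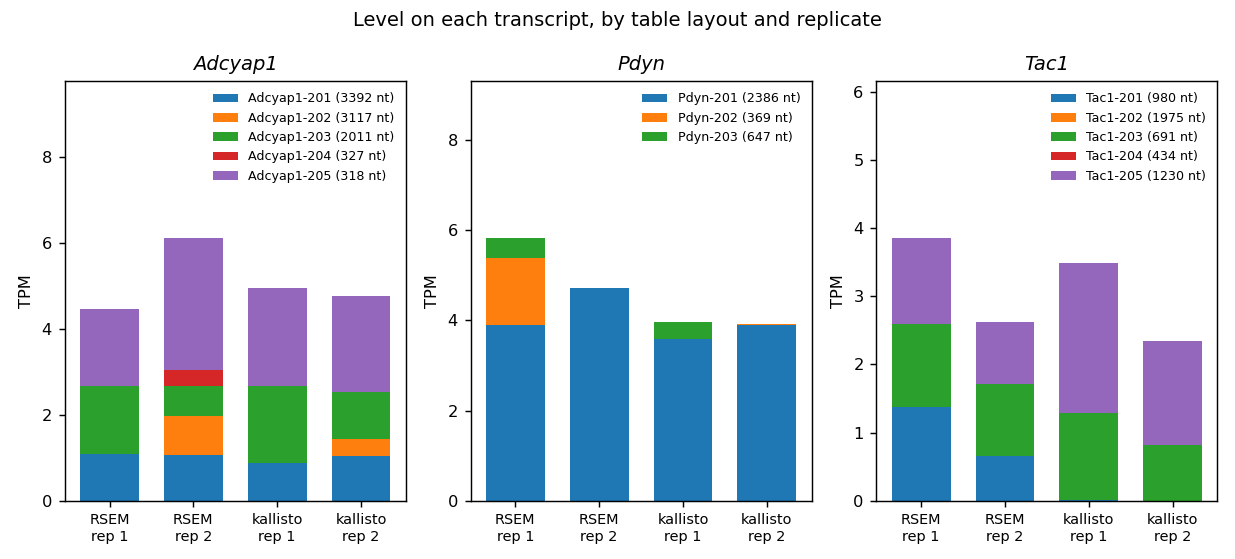
TPM on each annotated transcript of Adcyap1, Pdyn and Tac1 (stacked colours, with transcript lengths), in the RSEM-layout and the kallisto-layout table for replicates 1 and 2. The orange segment of Pdyn in replicate 1 is Pdyn-202 at 1.48 TPM, and the blue segment of Tac1 is Tac1-201, at 1.38 and 0.650 TPM in the RSEM layout and near 0 in the kallisto layout.

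Penk and Vip divided in similar shares in both tables, though the means differed by more than the SD of the RSEM layout. Penk-201, which holds all 7 opioid runs, had 81.6% ± 0.636 of Penk TPM by the RSEM layout and 79.9% ± 1.98 by kallisto's. The rest lay on Penk-202, whose annotated coding sequence holds 3 of the 7. Vip-201 had 98.6% ± 0.519 of Vip TPM in the RSEM-layout table, beside the retained-intron Vip-202 at 0.120 and 0.0800 TPM. By the kallisto layout Vip-201 had 97.5% ± 0.602. For Tac2 the tables placed replicate 2 on different transcripts that both hold the neurokinin B run. The RSEM layout gave 21.24 counts to Tac2-201 and 0 to Tac2-202, and the kallisto layout gave 0 and 28.2.

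The replicates were compared next. Expected counts were scaled with TMM, and a gene was called at 2-fold if its mean count was at least 100 and its mean TPM at least 1. Of the 10 genes 7 passed this filter, Tac1, Tac2 and Crh being too low in count, and 0 of the 7 were called in either direction. Among 13062 genes past the filter 0.107% were called higher in replicate 2 and 0.161% lower. Without the filter 0 of the 10 were called, against 3.01% higher and 6.54% lower among 28160 genes. At 1.5-fold 0 of the 7 were called, against 0.36% higher and 0.704% lower among all genes. With 2 libraries of 1 group there is no test of these ratios.

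**Figure D4:**
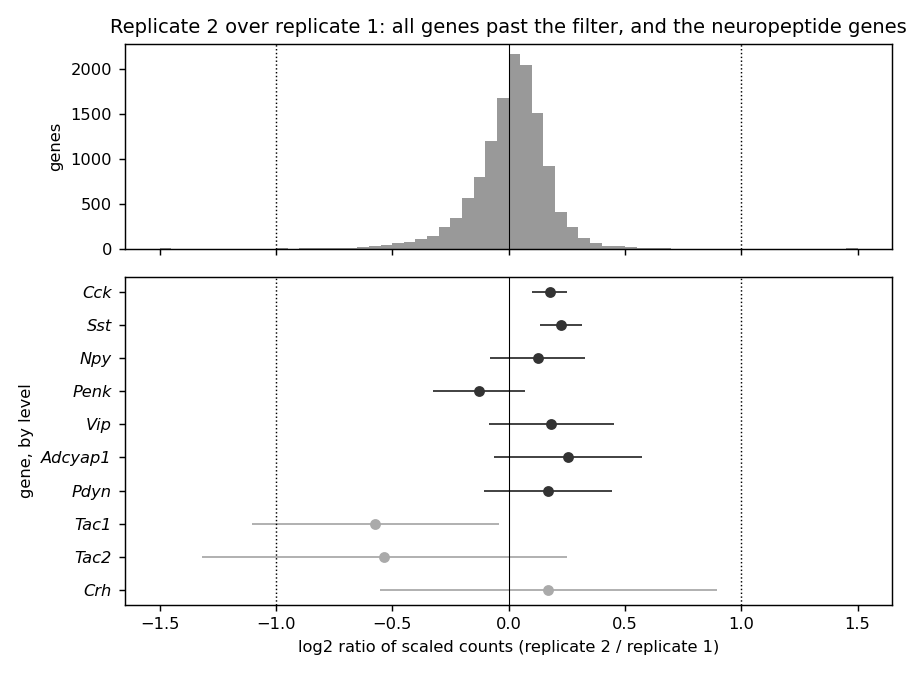
Upper panel: log2 ratio of scaled counts, replicate 2 over replicate 1, for 13062 genes past the filter, with values beyond 1.5 drawn at the edge. Lower panel: the same ratio for the 10 genes with 95% intervals for counting error alone, in grey for the genes under the filter, with dotted lines at 2-fold. The 7 genes past the filter lie well inside the lines, 6 of them right of 0.

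Of the 7 genes, 6 had more scaled counts in replicate 2, where 58.7% of all genes past the filter did, and Penk alone had fewer, as did 41.3% of all. Their median log2 ratio was 0.18, beside 0.03 for all genes. In size their ratios ran from 0.13 to 0.25, all above the median absolute log2 ratio of 0.09 over all genes past the filter, and 5 of the 7 were above its 75th percentile of 0.16. The ratios were 0.25 for Adcyap1, 0.22 for Sst, 0.18 for Vip, 0.18 for Cck, 0.17 for Pdyn and 0.13 for Npy, and -0.13 for Penk. The standard error from counting alone was 0.0465 for Sst and 0.0379 for Cck. It was 0.10 for Npy and Penk, 0.14 for Vip and Pdyn and 0.16 for Adcyap1. The values over all genes were not matched in count, so whether these 7 differed more than genes of like count was not tested. Below the filter, Tac1 had a ratio of -0.57 with a counting error of 0.27, Tac2 -0.53 with 0.40 and Crh 0.17 with 0.37. Tac1 and Tac2, the tachykinin genes, were the 2 with fewer raw counts in replicate 2.

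The markers of the cells that make these peptides gave the following values in the same libraries. In bulk tissue, fewer cells of a type and less RNA per cell cannot be told apart. Of 16 GABAergic interneuron genes, 15 were detected, and the list summed to 503.61 and 530.44 TPM in replicates 1 and 2. The synthesising enzyme Gad1 stood at 124.08 and 126.83 TPM, the cannabinoid receptor Cnr1, known from cholecystokinin interneurons, at 55.27 and 66.45 TPM, and Gad2 at 33.13 and 31.47 TPM. Of the 15 genes past the filter 12 had more scaled counts in replicate 2, and the median log2 ratio was 0.08. Chodl, a marker of long-range somatostatin cells, had 9 and 8 counts.

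All 6 glutamatergic genes and all 6 dentate granule genes were detected. The vesicular glutamate transporter Slc17a7 stood at 439.97 and 512.73 TPM, Camk2a at 1174.34 and 1293.52 TPM, Nrgn at 497.32 and 566.68 TPM and Neurod6 at 52.87 and 62.59 TPM. The dentate genes Fam163b, C1ql2, Prox1 and Trpc6 had means of 46.2, 26.8, 26.7 and 12.2 TPM. All 6 dentate genes had more scaled counts in replicate 2, their median log2 ratio being 0.17, and 5 of 6 glutamatergic genes did. The exception was Slc17a6, the transporter typical of thalamic and habenular neurons, at 14.94 and 9.41 TPM and a log2 ratio of -0.60, named after its value was seen.

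Markers of neighbouring regions were given beside the peptides because striatum and habenula are rich in several of them. The 8 striatum genes summed to 45.94 and 43.30 TPM in replicates 1 and 2, with Ppp1r1b at 23.7 ± 0.955, Scn4b at 6.73 ± 0.460, Rgs9 at 5.75 ± 0.566 and Drd1 at 3.68 ± 0.00707 TPM. The striatal gene Ido1 had 0 counts in replicate 1 and 1 in replicate 2, and Adora2a and Drd2 stood at 0.920 and 1.52 TPM. The 6 habenula genes summed to 8.99 and 8.28 TPM, of which Nwd2 took 6.43 ± 0.141 TPM, while Gng8 stood at 1.20 ± 0.0212, Gpr151 at 0.345 ± 0.0354 and Chrna3 at 0.305 ± 0.134 TPM. Each of the 6 was lower in TPM in replicate 2. Raw counts, not scaled for depth, were 908 and 1160 for Nwd2, 13 and 17 for Gng8 and 12 and 12 for Gpr151. Chrnb4 had 20 and 19, Chrna3 29 and 18 and Pou4f1 9 and 1. Nwd2, the only habenula gene past the filter, had a log2 ratio of 0.16. Below the filter the ratios were 0.17 for Gng8, -0.16 for Gpr151, -0.24 for Chrnb4, -0.81 for Chrna3 and -1.99 for Pou4f1. The 6 neocortex genes summed to 91.21 and 86.08 TPM. Tshz2 led at a mean of 32.6 TPM, followed by Cux2 at 22.30 and 19.61 TPM in the respective libraries. Fezf2 and Rorb came next, at means of 17.6 and 8.07 TPM. All 6 passed the filter, and 5 of them had fewer scaled counts in replicate 2. The 6 choroid plexus genes summed to 449.87 and 157.20 TPM, with Ttr at 426.21 and 146.34, Kl at 7.01 and 4.74, Sostdc1 at 4.03 and 2.28 and Kcnj13 at 4.21 and 2.02 TPM. Of those past the filter, Clic6, at a log2 ratio of -1.55, and Ttr, at -1.54, were past 2-fold. Folr1, below the filter, had a log2 ratio of -2.70 on 67 and 10 counts. The part of these tissues in the peptide values was not tested.

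The receptors were uneven across the peptides. Of 22 receptor genes 14 were detected, a share near the 13251 of 22015 among nuclear protein-coding genes. Of the 22, 12 passed the filter and 0 of these were past 2-fold between the replicates. Their median log2 ratio was 0.09, with 10 of the 12 higher in replicate 2.

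**Figure D5:**
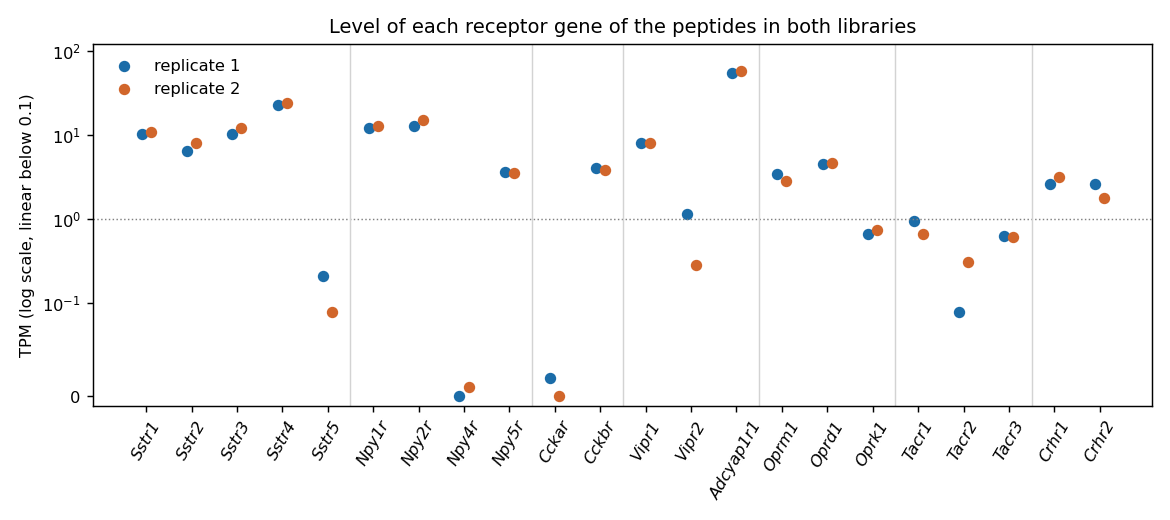
TPM of the 22 receptor genes in replicates 1 and 2 (log axis, linear below 0.1), set apart by grey lines into receptors for somatostatin, neuropeptide Y, cholecystokinin, VIP and PACAP, opioids, tachykinins and corticotropin-releasing hormone. Adcyap1r1 is highest at 53.48 and 56.97 TPM, and all 3 tachykinin receptors lie under the dotted line at a TPM of 1.

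Adcyap1r1, the receptor selective for PACAP, was the highest receptor gene, at 53.48 and 56.97 TPM, a mean of 55.2 ± 2.47 TPM, although its ligand gene Adcyap1 stood at 5.29 TPM. Vipr1, which binds both VIP and PACAP, stood at 7.94 TPM in each library. Vipr2, which binds both as well, stood at 1.13 and 0.280 TPM, on 61 and 14 counts, a log2 ratio of -2.15 below the count filter. Vipr2 was the receptor furthest apart between the libraries among those with more than 20 counts in one of them, and it was singled out after its values were seen.

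The somatostatin receptors, which couple to inhibitory G proteins, were led by Sstr4 at 23.1 ± 1.07 TPM, followed by Sstr3, the receptor of neuronal cilia, at 11.1 ± 1.18, Sstr1 at 10.5 ± 0.523 and Sstr2 at 7.15 ± 1.09 TPM. The libraries of Sstr3 and Sstr1 overlapped. Sstr5 had 10 and 5 counts, at 0.210 and 0.0900 TPM. Sstr2 had the highest log2 ratio of the 4 detected genes, 0.27, and that of Sst itself was 0.22.

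Of the neuropeptide Y receptors, Npy2r, the presynaptic receptor, stood at 13.8 ± 1.75 TPM and Npy1r at 12.5 ± 0.523 TPM, with overlapping libraries. Npy5r stood at 3.52 ± 0.0707 TPM, and Npy4r had 0 counts in replicate 1 and 1 in replicate 2. For cholecystokinin, the brain receptor Cckbr stood at 3.91 ± 0.198 TPM, far under the 238 TPM of its ligand gene, and Cckar, the receptor of the gut, had 1 and 0 counts. A count of 0 allows up to 3 counts, for counting error alone.

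The opioid receptors were low. Oprd1, the delta receptor preferred by enkephalins, stood at 4.57 ± 0.113 TPM, the mu receptor gene Oprm1 at 3.09 ± 0.417 TPM and the kappa receptor gene Oprk1, whose ligands are the dynorphins, at 0.700 ± 0.0566 TPM. The libraries of these 3 did not overlap each other. For the tachykinins, the substance P receptor gene Tacr1 stood at 0.950 and 0.660 TPM on 86 and 72 counts, and the neurokinin B receptor gene Tacr3 at 0.630 and 0.600 TPM. Tacr2 had 4 and 15 counts. Crhr1, the main receptor of corticotropin-releasing hormone, stood at 2.84 ± 0.375 TPM and Crhr2 at 2.18 ± 0.559 TPM. Crhr2 stood at 2.57 and 1.78 TPM in replicates 1 and 2, while its counts were 78 and 88.

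Genes that bind, degrade or process the peptides were also set beside them. Crhbp, a secreted protein that binds corticotropin-releasing hormone, stood at 8.87 ± 0.834 TPM, above the hormone gene and both of its receptor genes in each library. The peptidases Thop1, Nln and Prep stood at 19.3 ± 1.95, 12.6 ± 1.07 and 3.66 ± 0.311 TPM. All 9 processing genes were detected, with a median of 83.1 ± 0.523 TPM. The carboxypeptidase Cpe, which trims the basic residues, stood at 1250.2 ± 7.96 TPM. Pcsk1n and Scg5 stood at 162 and 161 TPM, Ctsl at 102.25 and 107.34 TPM in the respective libraries, and Pam, the amidating enzyme that acts on the glycine runs shown above, at 83.1 ± 0.523 TPM. Of the convertases that cut at basic pairs, Pcsk2 stood at 65.9 ± 3.61 TPM and Pcsk1 at 8.23 ± 1.39 TPM.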

How the data were processed

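For each library the authors deposited gene and transcript tables whose columns are those of RSEM (expected counts, TPM, lengths, posterior SD). A further transcript table has kallisto's columns (estimated counts and TPM). Per the file headers and readme, mm10 and GENCODE M21 were used. Program names, versions and strand settings remain not given in the sources used here. CAST and transgene sequences were not used here.

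Levels are the deposited TPM. TMM factors came from rounded expected counts (edgeR 4.0.16 under R 4.3.3), and log2 ratios used CPM with a prior count of 2. Alternatives used DESeq2 1.42.0 size factors, library size, spike-in totals, a prior count of 0.5 and the kallisto layout. Rows that are not mouse genes (96 spike-ins and 26248 numeric identifiers among them) held 0.481% and 0.454% of counts and stayed out of library sizes. Of the mouse genes, 86 have no row in the kallisto-layout table. The calculation of the ratios was checked on simulated counts with known changes. Coding and promoter motifs were searched with Python 3.11.15, numpy 2.4.6 and pandas 2.3.3, and figures drawn with matplotlib 3.10.9.

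The members and gene lists were chosen with earlier results of these data known. Named genes are all members, all receptors, the 4 highest genes of each other list and list genes past 2-fold; other names were chosen after their values were seen. Some genes that this rule names are not reported here. With 2 libraries no likeness between gene patterns was computed. The labels name no molecular identifiers, so counting errors cover counting alone.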

Additional observations from a re-analysis of the deposited data

How the results depend on the processing

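No paired analysis was possible because the 2 libraries form 1 group. The summed level of 469 TPM was 441 to 496 TPM with either library alone, 536 TPM in the kallisto-layout table and 1047 TPM when TPM was rescaled to nuclear protein-coding genes, which multiplied every gene by 2.27 in replicate 1 and 2.20 in replicate 2. The other settings moved that sum by less than its SD. The order of the 10 levels kept at least 8 genes in place under every setting but 1, the sum over transcripts that hold every peptide run, which left 6 in place. The median share on such transcripts was 85.8% by TPM and 92.9% by expected counts, a unit chosen after seeing the data, as were that transcript set and the alternatives for the order and the receptors. Members called at 2-fold numbered 0 with DESeq2 size factors, library size, spike-in totals, kallisto-layout counts and a prior count of 0.5, as at 1.5-fold and without the filter. Every member's ratio kept its sign with those scalings and counts, and their choice moved the median ratio of all genes from 0.00 to 0.08. At under 100 counts (Tac1, Tac2 and Crh) and for isoforms of the low genes, depth limits what can be said.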

Other observations

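Other neuropeptide genes were mostly low in these libraries. Of 24 such genes, 7 were detected, and the list summed to 34.95 and 46.33 TPM in replicates 1 and 2, against 441 and 496 TPM for the 10 hippocampal genes. Grp, the gene of gastrin-releasing peptide, was highest at 11.11 and 16.28 TPM, on 194 and 315 counts. Nts, the gene of neurotensin, stood at 5.14 and 7.46 TPM, Cort, the gene of the somatostatin relative cortistatin, at 5.29 and 5.03 TPM, and Nmb at 2.94 and 5.35 TPM. Grp and Nts had log2 ratios of 0.50 and 0.53 between the replicates, the Sst ratio being 0.22. Pnoc, the gene of the opioid-like nociceptin, stood at 3.68 and 3.80 TPM.

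Peptide genes known from the hypothalamus varied. Hcrt had 1 count per library, Pmch 2 and 1, Agrp 0 and 1, Oxt 0 and 1 and Avp 5 and 14. Trh had 18 and 19 counts, Cartpt 24 and 17, and Pomc 19 and 27, the last at 1.04 and 1.32 TPM beside Crh at 1.13 and 1.28 TPM. Kiss1, Ucn and Nmu had 0 counts in both libraries, and each such 0 allows up to 3 counts. Of all listed genes past the count filter, Qpct, a cyclase that modifies peptide ends, was the furthest apart outside the choroid plexus list, at 4.43 and 7.60 TPM on 149 and 293 counts, a log2 ratio of 0.78. These genes, apart from Grp, Nts, Cort and Nmb, were chosen after their values were seen.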
